A study of Mus musculus with 14 samples.

Results

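Peaks of accessible chromatin were compared between 2 mouse small cell lung cancer lines of the same genotype and tissue, 1398P2 and 1399P1, with 2 libraries each. These are 4 of the 14 libraries and 2 of the 7 lines of the series. Both lines carried the genotype RPR2;Nfibf/f and came from a lung tumor, so the comparison holds genotype and site constant and shows how far 2 such lines differ. The other 5 lines were 1398M1 and 1399M4 (RPR2;Nfibf/f, liver metastases), 1373M1 (RPR2, liver metastasis), and 12N1G and N2N1G (RPR2, lymph node metastases). All were cultured in DMEM with serum and profiled by OMNI-ATAC, a form of ATAC-seq in which a transposase inserts adapters into open DNA of permeabilised cells. The name RPR2 is used in this field for conditional loss of Rb1, Trp53 and Rbl2, which encode tumor suppressors, and Nfibf/f denotes floxed Nfib. The labels do not say how the alleles were recombined, whether the cultures derive from single clones, or whether the paired libraries were separate cultures. The spread between libraries may therefore be technical, and a difference here is between 2 lines, not between 2 kinds of tumor.

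Overlapping peaks of the 4 libraries (at least 1 bp) were merged into 110692 regions on chromosomes 1 to 19 and X, out of 177577 regions for all 14 libraries. A region counts as open in a line when each of its libraries had a peak there, and as closed when neither did. It is line-specific when open in one line and closed in the other. These peak states chose the regions, so the counts of regions are descriptions and carry no test.

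Small cell lung cancer is a neuroendocrine carcinoma, and many tumors express the zinc finger factor INSM1, with secretory granule proteins such as the chromogranins as markers. NFIB belongs to the nuclear factor I family (NFIA, NFIB, NFIC, NFIX), which binds DNA as dimers at paired TTGGC half-sites and is linked to open distal chromatin and metastasis in this cancer. Open chromatin falls at promoters, where CpG-rich sequence is often accessible in many cell types, and at distal elements, which differ more between cell states.

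Promoters of 6 genes are printed as examples of line-specific windows. Each is a RefSeq window of 300 bases on GRCm38.p6, from 250 bases before to 50 after a transcription start, read 5′ to 3′ on the strand of the gene, with CG dinucleotides in capitals. The first 3 were open in 1399P1 and closed in 1398P2, and had a peak in all 10 libraries of the other lines. They were chosen after their values were seen, and are not typical of their class. Of the 422 promoter windows specific to 1399P1, 45 were open in all 5 other lines and 85 in none. Their median was 7 CG dinucleotides. A promoter window was touched by 2.92% of all 1399P1-specific regions and 1.92% of the 1398P2-specific ones. Isl1 (chr13:116309639-116309938, minus strand) encodes a LIM-homeodomain factor of motor neurons and endocrine cells, and its window holds 37 CG dinucleotides. Epha5 (chr5:84417333-84417632, minus strand), with 30, encodes a receptor for ephrin-A ligands in axon guidance. Hepacam2 (chr6:3494449-3494748, minus strand), with 3, encodes a cell adhesion protein of the immunoglobulin family.
Isl1: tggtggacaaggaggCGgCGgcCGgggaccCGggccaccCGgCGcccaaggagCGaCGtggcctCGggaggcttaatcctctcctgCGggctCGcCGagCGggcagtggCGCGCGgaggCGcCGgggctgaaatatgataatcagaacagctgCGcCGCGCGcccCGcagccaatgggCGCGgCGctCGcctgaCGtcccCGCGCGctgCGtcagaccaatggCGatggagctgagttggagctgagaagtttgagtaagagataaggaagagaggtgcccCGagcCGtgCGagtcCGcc
Epha5: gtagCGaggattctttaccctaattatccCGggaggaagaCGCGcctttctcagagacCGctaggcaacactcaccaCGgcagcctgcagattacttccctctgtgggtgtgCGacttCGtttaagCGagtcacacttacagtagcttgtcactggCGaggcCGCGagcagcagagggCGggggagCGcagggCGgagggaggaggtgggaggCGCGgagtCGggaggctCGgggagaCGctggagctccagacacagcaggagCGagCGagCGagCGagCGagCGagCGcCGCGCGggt
Hepacam2: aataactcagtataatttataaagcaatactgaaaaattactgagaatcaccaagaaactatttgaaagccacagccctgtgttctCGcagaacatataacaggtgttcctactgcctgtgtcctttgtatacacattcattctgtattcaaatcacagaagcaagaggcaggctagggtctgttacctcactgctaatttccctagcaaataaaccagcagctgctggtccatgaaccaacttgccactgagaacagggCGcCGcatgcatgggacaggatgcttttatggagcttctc
The other 3 were open in 1398P2 and closed in 1399P1, and had a peak in 0 of the 10 libraries of the other lines. S100a11 (chr3:93520246-93520545, plus strand) encodes a calcium-binding S100 protein, and its window holds 15 CG dinucleotides. Kcna7 (chr7:45405710-45406009, plus strand), with 4, encodes a voltage-gated potassium channel subunit. Olfm2 (chr9:20728180-20728479, minus strand), with 5, encodes a secreted olfactomedin-domain protein.
S100a11: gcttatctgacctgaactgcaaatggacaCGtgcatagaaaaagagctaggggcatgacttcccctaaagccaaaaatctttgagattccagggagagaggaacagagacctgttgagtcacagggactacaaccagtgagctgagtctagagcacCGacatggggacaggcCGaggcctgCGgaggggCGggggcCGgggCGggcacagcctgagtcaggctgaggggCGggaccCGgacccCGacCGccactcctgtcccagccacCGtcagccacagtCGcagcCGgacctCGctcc
Kcna7: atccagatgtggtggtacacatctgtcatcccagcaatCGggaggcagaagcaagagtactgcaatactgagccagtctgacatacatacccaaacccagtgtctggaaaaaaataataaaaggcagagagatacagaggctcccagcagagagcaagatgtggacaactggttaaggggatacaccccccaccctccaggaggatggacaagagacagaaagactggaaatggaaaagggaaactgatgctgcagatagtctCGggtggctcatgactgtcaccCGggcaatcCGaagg
Olfm2: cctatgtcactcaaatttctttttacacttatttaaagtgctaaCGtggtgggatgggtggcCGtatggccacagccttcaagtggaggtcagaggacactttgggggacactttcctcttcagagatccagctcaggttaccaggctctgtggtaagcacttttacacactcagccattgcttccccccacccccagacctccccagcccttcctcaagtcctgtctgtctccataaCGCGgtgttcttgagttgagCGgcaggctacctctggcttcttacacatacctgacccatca

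All 6 windows were line-specific with all peaks and also with equal numbers of top-ranked peaks. Those of Isl1 and Epha5 lay in stretches of 519 and 750 kb without a peak of 1398P2. The peak over the Isl1 window stood at percentile 82.7 of all peaks of its library by -log10 p in 1399P1 replicate 1 and at 70.9 in replicate 2, and that over Epha5 at 65.2 and 72.5. The Olfm2 peak stood at 85.2 in 1398P2 replicate 1 and 55.4 in replicate 2, the Kcna7 peak at 84.6 and 23.8, and the S100a11 peak at 62.6 and 24.3. The windows of Isl1 and Epha5 hold more CG dinucleotides than the median of 23 over windows open in both lines, and those of the other 4 genes hold fewer.

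One library set the terms of the comparison. Replicate 2 of 1398P2 had 33519 peaks, against 78843 in replicate 1, 84199 and 79168 in the libraries of 1399P1 and 64975 to 77332 in the 10 others. Its background floor, the lowest local background of any summit and a measure of depth, was 0.507 fragments per bp, against 1.134 in replicate 1 and 0.803 and 0.893 in 1399P1. The short list was nearly contained in the long one: 90.3% of its regions also had a peak in replicate 1. The Jaccard index (shared regions over regions in either library) was 0.354 for the pair of 1398P2 and 0.709 for that of 1399P1. It was 0.603 between replicate 1 of 1398P2 and replicate 1 of 1399P1, so by this measure 1398P2 replicate 1 lay closer to the other line than to its own partner. With each list cut to its 33519 top-ranked peaks, the index of the 1398P2 pair rose to 0.621, still below the 0.655 between the first replicates of the lines.

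The neuroendocrine label was checked at the gene ends, taken as 1 kb around either end because the gene table gives no strand. A peak lay at an end of Insm1, Dll3, Syp, Chga and Chgb in each of the 4 libraries. Of 20 neuroendocrine secretory and marker genes, 14 were open there in both lines and 0 were line-specific, beside 53.01% of 21631 protein-coding genes open in both. Of 30 neuroendocrine and neuronal transcription factors, 13 were open in both lines (43.3%), below that share. The epithelial list was open in both lines for 15 of 16 genes. Among markers of other cells, gene ends were closed in both lines for 7 of 12 fibroblast and endothelial, 7 of 12 blood cell and 6 of 12 hepatocyte markers, beside 30.0% of all genes. For other lung epithelial markers it was 6 of 16 (37.5%), near that share. Regions with a peak within 10 kb, summed over each list, numbered 37, 13, 39 and 33 for the stromal markers in 1398P2 replicates 1 and 2 and 1399P1 replicates 1 and 2, and 34, 13, 33 and 25 for the blood cell markers. In the same order they were 23, 9, 20 and 20 for the hepatocyte and 41, 15, 46 and 42 for the lung epithelial markers. The lowest sum of each list was in replicate 2 of 1398P2, the library with the fewest peaks. Most markers had such a region in at least 1 library: 11 of 12 stromal, 10 of 12 blood cell, 9 of 12 hepatocyte and 15 of 16 lung epithelial markers. The few at 0 in all 4 libraries included Alb and Afp, the main hepatocyte markers, and Cd8a, Adgre1 and Lum.

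The targeted gene Nfib (chromosome 4, 82290173 to 82506751) had a gene-end peak in all 4 libraries. It had 9 and 4 regions with a peak in 1398P2 replicates 1 and 2, and 17 in each library of 1399P1, in the gene and 10 kb around it. These peaks do not check the deletion, because the labels do not say which part of Nfib the conditional allele removes.

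Of the 110692 regions, 27541 (24.9%) were open in both lines, 12681 (11.5%) were specific to 1399P1 and 625 (0.565%) to 1398P2. The size of the imbalance depended on the short library and on the rule. Against 1398P2 replicate 1 alone, 14692 regions (13.5% of 108604) were open in 1398P2 and closed in 1399P1, and 12908 (11.9%) the other way. There 1 library decided for 1398P2 and 2 for 1399P1, so these counts follow unlike rules. With 1399P1 replicate 1 or 2 left out instead, 20081 or 21851 regions were specific to 1399P1 and 1147 or 909 to 1398P2. With equal numbers of top-ranked peaks the counts were 2270 (4.62% of 49147) for 1398P2 and 3509 (7.14%) for 1399P1. The plot of counts by setting shows a near-equal 1399P1 count with replicate 2 of 1398P2 left out, whereas the 1398P2 count changed by more than an order of magnitude. The 1399P1 count could change little there, as 230 of 66526 regions open in 1399P1 had a peak in that replicate alone.

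**Figure D1:**
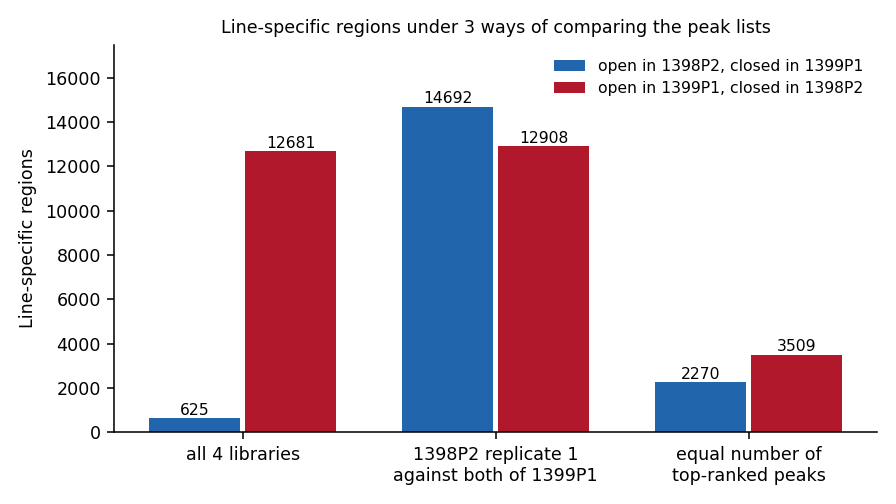
Number of line-specific regions (y axis) for the 4 libraries as deposited, for replicate 1 of 1398P2 against both libraries of 1399P1, and for the 33519 top-ranked peaks of each library. Bars are counts: the 1399P1 count is 12681 and 12908 in the first pair of settings and 3509 in the third, and the 1398P2 count is 625, 14692 and 2270.

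The regions closed in 1399P1 show where the 1398P2 count comes from. Among 16804 such regions, 625 had a peak in both libraries of 1398P2, 14064 in replicate 1 alone and 2115 in replicate 2 alone. Conversely, 66526 regions were open in 1399P1. Of these, 27541 had a peak in both libraries of 1398P2, 26074 in replicate 1 alone, 230 in replicate 2 alone, and 12681 in neither. A total of 181 of the 625 and 1085 of the 12681 were also specific with equal numbers of top-ranked peaks, which is 29.0% and 8.56%, and are called recurrent below.

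Line-specific regions had weak peaks. Ranked within each library by -log10 p, regions open in both lines had a median percentile of 82.2 in 1398P2 replicate 1, 57.3 in replicate 2, and 82.5 and 81.4 in 1399P1. Regions specific to 1399P1 had medians of 33.7 and 32.8 in its libraries, and those specific to 1398P2 had 44.6 and 19.9. The 14064 regions found in 1398P2 replicate 1 alone had a median of 18.0. A region without a peak is one not detected in that library, which need not mean closed chromatin. The part of depth in this was not tested.

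**Figure D2:**
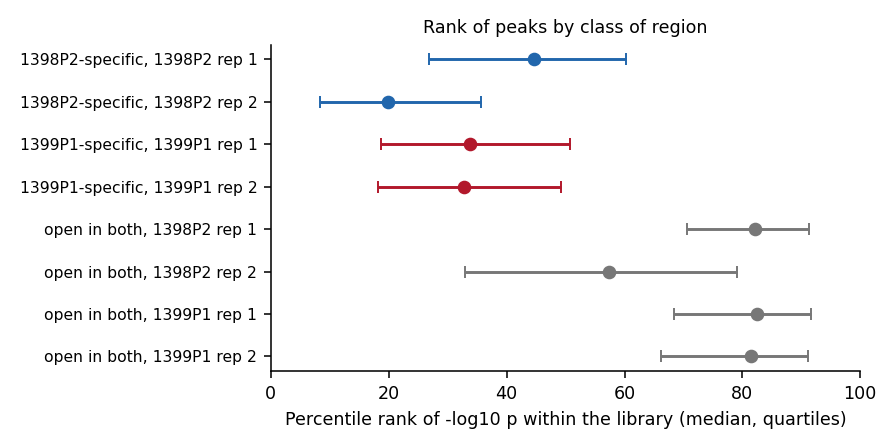
Percentile rank of -log10 p within each library (x axis) for the 3 classes of region; points are medians over regions and bars run from the lower to the upper quartile. The line-specific classes have medians from 19.9 to 44.6 and the regions open in both lines from 57.3 to 82.5.

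Both sets of line-specific regions lay away from gene ends. Within 1 kb of a gene end lay 4.80% of the 1398P2-specific and 4.81% of the 1399P1-specific regions, against 38.9% of those open in both lines and 14.7% of all regions. Inside genes lay 55.7% of the 1398P2-specific and 48.8% of the 1399P1-specific regions, and outside genes 39.5% and 46.4%. With equal numbers of top-ranked peaks the gene-end shares were 9.25% and 8.49%, against 47.6% of regions open in both and 25.4% of all. Both sets thus had near-equal shares at gene ends under both settings, below those of the shared regions.

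Promoter windows were also more often specific to 1399P1 with all peaks. Of 32619 windows of 26794 genes, 422 (1.29%) were specific to 1399P1, 13 (0.0399%) to 1398P2 and 11689 were open in both lines. Against replicate 1 of 1398P2 alone the counts were 424 (1.3%) and 504 (1.55%), and with equal numbers of top-ranked peaks 314 (0.963%) and 151 (0.463%). The CG content of the 1399P1-specific windows lay between that of the open and the closed ones. An observed over expected CpG ratio of at least 0.6 was found in 24.6% of the 1399P1-specific windows and in 0 of the 13 1398P2-specific ones, against 79.6% of the windows open in both lines and 4.55% of those closed in both, beside 36.04% of all windows. The median of 7 CG dinucleotides in the 1399P1-specific windows was that of all windows. For the 504 windows specific to replicate 1 of 1398P2 the share was 20.04%.

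Short words were counted on both strands of the same windows. The nuclear factor I half-site TTGGCA was present in 108 of the 422 1399P1-specific windows (25.6%), in 10.3% of the 504 windows specific to replicate 1 of 1398P2, in 9.82% of those open in both lines, in 16.8% of those closed in both and in 14.1% of all windows. The AP-1 words TGACTCA and TGAGTCA were present in 5.45% of the 1399P1-specific windows, 10.5% of the 1398P2 replicate 1 ones, 3.02% of the windows open in both and 5.22% of all. The full nuclear factor I palindrome, a pair of inverted TTGGC half-sites, was in 12 windows in all and in 0 of the line-specific ones. A palindrome can also count as TTGGCA. The classes differ in CG content, and its part in these shares was not tested. A word in a window is a match of letters, not a binding site.

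The other 5 lines, which the choice of regions did not use, divided the sets (plot of shares by line). Of the 12681 regions specific to 1399P1, 50.0% were open in 12N1G and 51.0% in N2N1G, the RPR2 lymph node lines. The share was 35.4% in 1373M1, and lower still in 1399M4 (24.1%) and 1398M1 (23.4%). Over all 110692 regions the shares were even, from 41.6% in 1373M1 to 47.2% in 1398M1. The 1399P1-specific regions were therefore open more often than all regions in the lymph node lines. They were open less often than all regions in the liver metastasis lines of both genotypes, 1373M1, 1398M1 and 1399M4. The last of these shares the number 1399. The 625 regions specific to 1398P2 gave the opposite order. They were open most often in 1398M1 (28.5%), then in 1399M4 (16.2%), 1373M1 (13.0%), 12N1G (9.44%) and N2N1G (9.28%), and 219 (35.0%) were closed in all 5 lines, beside 17.2% of all regions and 15.4% of the 1399P1-specific ones.

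Wilson 95% intervals, which cover counting error only and treat regions as independent, ran from 25.1% to 32.1% for 1398M1 and from 7.39% to 12.0% for 12N1G over the 1398P2-specific regions. The order of 1398M1 before the lymph node lines held with replicate 1 of 1398P2 alone (17.5% for 1398M1, against 7.84% and 7.66%) and with equal top-ranked peaks (26.5%, 9.56% and 10.9%). For 1399P1-specific regions, equal top-ranked peaks gave 42.9% in 12N1G and 44.5% in N2N1G. The liver metastasis lines followed with 36.8% (1373M1), 35.4% (1399M4) and 30.7% (1398M1). Both lymph node shares then lay near the 43.9% and 44.5% of all regions, whereas 1373M1, 1398M1 and 1399M4 stayed below their 45.2%, 51.2% and 48.8%. The 1085 recurrent regions of 1399P1 differed, with 67.2% open in 12N1G and 67.9% in N2N1G. In 1373M1 49.0% of them were open, above the 41.6% of all regions with all peaks. The shares in 1398M1 (33.8%) and 1399M4 (36.1%) stayed below those of all regions. At the 422 1399P1-specific promoter windows the lymph node lines again led, with 64.5% (12N1G) and 64.0% (N2N1G) open. For 1373M1, 1398M1 and 1399M4 the shares were 38.4%, 34.4% and 30.3%. Of these windows 45, of 44 genes, were open in all 5 lines and 85 in none. The shares over all promoter windows were not counted for these lines, so these shares cannot be called particular to the set.

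**Figure D3:**
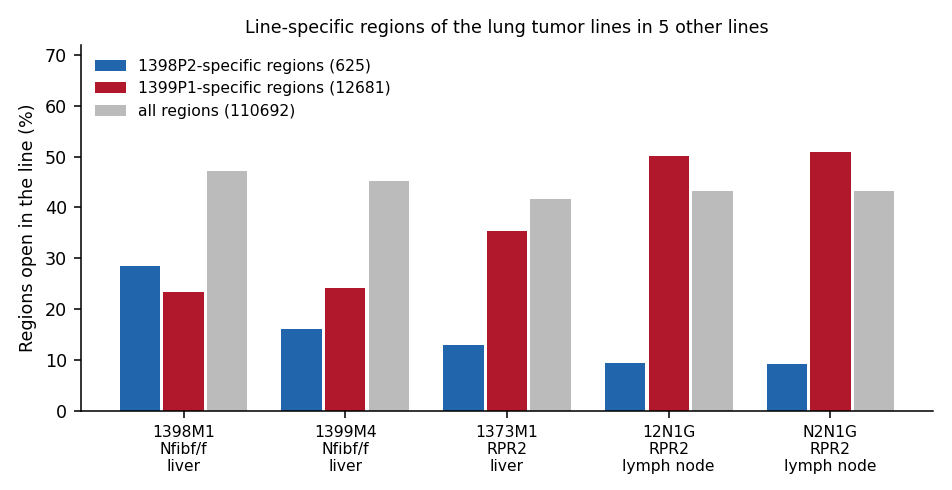
Percent of regions open (a peak in both libraries) in each of 5 other lines for the 1398P2-specific, the 1399P1-specific and all merged regions of the 4 libraries. The 1399P1-specific bars are highest in 12N1G and N2N1G (50.0% and 51.0%), and the 1398P2-specific bar is highest in 1398M1 (28.5%).

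A stretch of chromosome 4 that holds Nfia had a high density of 1399P1-specific regions. Its bounds were set from the local background in 1399P1, given below, and not from the density of regions. From 95000001 to 98000000, 272 of 513 regions (53.02%) were specific to 1399P1, against 11.3% of the 110179 regions elsewhere. The 4 libraries had a peak in 74, 22, 446 and 393 of the regions there (1398P2 replicates 1 and 2, then 1399P1 replicates 1 and 2). In the merge of all 14 libraries, the libraries of the other lines had a peak in 45 to 89 of 537 regions of this stretch. The 5 recurrent 1399P1-specific regions with the highest mean percentile all lay here: 25083 bp from Gm12695 (96696472 to 96698498), inside Nfia (97868176 to 97869457 and 97910235 to 97911606), at an end of Cyp2j13 (96076543 to 96077876), and 137620 bp from Nfia (97439110 to 97440446). Their mean percentiles ran from 99.9 to 100.0, and each was open in 2 to 4 of the other lines.

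The stretch joins the 1 Mb bins where the local background of both 1399P1 libraries exceeded 2 times the library floor. Its raised background was thus fixed by this choice, and is a description. In the bins of 1 Mb starting at 95, 96 and 97 Mb, the 10% quantile of the local backgrounds stood at 10.99, 9.65 and 11.1 times the library floor in 1399P1 replicate 1 and at 15.1, 12.8 and 15.4 times in replicate 2. It was 1.00, 1.03 and 1.00 times in 1398P2 replicate 1, and at most 1.29 times in the 10 libraries of the other lines. The next bin, from 98 Mb, stood at 1.61 and 1.51 times in 1399P1. Each background was solved from the fold and p of a summit, so fragments between the peaks were not measured separately. The part of DNA copy number in the peak counts at Nfia, Fggy and the Cyp2j genes was not tested. The 12409 regions specific to 1399P1 outside the stretch make up the bulk of the set.

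**Figure D4:**
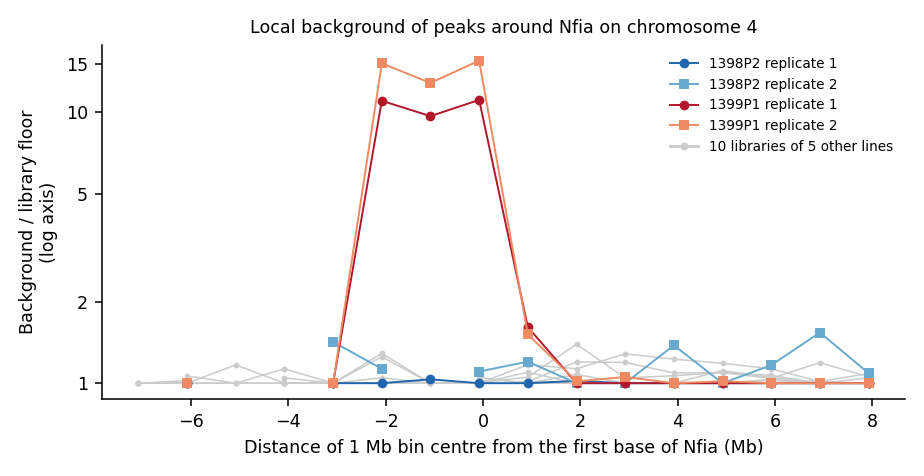
The 10% quantile of the local background of peaks in bins of 1 Mb, divided by the floor of the library (y axis, log scale), against the distance of the bin centre from the first base of Nfia on chromosome 4. Both libraries of 1399P1 stand at 9.65 to 15.4 times the floor in 3 neighbouring bins, and 1398P2 and the 10 libraries of other lines stay near 1; bins with fewer than 5 summits in a library are not drawn.

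NFIA, a paralog of NFIB, is encoded in this stretch, and its gene had the most line-specific regions of any gene. Nfia (chromosome 4, 97578066 to 98118876) had 22 and 7 regions with a peak in 1398P2 and 87 and 78 in 1399P1. Of its 98 regions, 47 were specific to 1399P1, 21 of them recurrent, and 0 to 1398P2. Its gene end had a peak in both libraries of 1399P1 and in neither of 1398P2, and in 0 or 1 of the libraries of each other line. After scaling, the log2 difference of 1399P1 over 1398P2 was 2.17 ± 0.23 (SE), with an adjusted p of 0.0971 in limma. Nfib differed by 0.94 ± 0.23 (adjusted p = 0.629). Nfix had 13 and 6 regions in 1398P2 and 16 and 15 in 1399P1, and Nfic 10 and 3 against 12 and 7, with log2 differences of 0.28 and 0.21 and adjusted p of 0.660 and 0.802 in limma. The Nfic libraries overlapped between lines, and its difference was below 0 with replicate 2 of 1398P2 left out (-0.09).

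Across genes, limma compared the scaled number of regions with a peak in each gene and 10 kb around it. Genes were tested if they averaged 3 or more regions. Among 8041 such genes, 0 passed an adjusted p of 0.05 in either direction (background 0.0%). At an unadjusted p under 0.05 there were 334 genes higher in 1399P1 (4.15%) and 158 higher in 1398P2 (1.96%). The wide spread within 1398P2 enters this error. With its replicate 2 left out, 467 genes were called higher in 1399P1 (4.8% of 9730) and 188 higher in 1398P2 (1.93%), a fit in which the lone library is assumed to vary like the other line. An exact permutation test of 2 libraries against 2 cannot give a two-sided p below 0.333. Since no gene was called, the genes below were chosen after their values were seen, as those of smallest p in each direction.

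The smallest p in limma belonged to Csmd1, Nfia and Fggy, each with an adjusted p of 0.0971. Csmd1 (chromosome 8), a very long gene for a complement-control membrane protein, had 1 region in each library of 1398P2 and 19 in each of 1399P1, a log2 difference of 3.27 ± 0.32 (SE). Fggy, a carbohydrate kinase gene in the chromosome 4 stretch, had 14 and 4 against 64 and 58, a difference of 2.44 ± 0.27. Its 37 regions specific to 1399P1 and 0 to 1398P2 were fewer only than those of Nfia among all genes. Outside that stretch, Ankfn1 on chromosome 11 had 1 and 1 regions against 13 and 12. Kank1, which encodes a regulator of the actin cytoskeleton, had 3 and 1 against 16 and 11. Tenm3, a teneurin that guides synaptic partners, had 3 and 1 against 11 and 14. The adjusted p of Ankfn1 was 0.122, that of Kank1 0.160 and that of Tenm3 0.169 in limma. These numbers of regions are unscaled. Over all protein-coding genes they summed to 33859 in 1398P2 replicate 2, against 72281 in replicate 1 and 73029 and 68862 in 1399P1. Erbb4, a receptor tyrosine kinase for neuregulins, had 2 and 1 regions against 8 and 8. Magi1, a scaffold protein of cell junctions, had 9 and 1 against 33 and 27, and its 15 specific regions were all open in 1399P1.

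The recurrent regions of 1398P2 were scattered. The 5 with the highest mean percentile lay on 5 chromosomes: inside Ice1, a gene for a component of the little elongation complex (chr13:70612034-70612770), inside Map2k2, the gene for the MAP kinase kinase MEK2 (chr10:81112530-81113389), and outside genes at 5836 bp from Scgb1b30, 46242 bp from Slc25a33 and 368266 bp from 1700129C05Rik. Their mean percentiles ran from 76.1 to 85.1, and those in Ice1 and Map2k2 were open in 0 of the other 5 lines. No gene held more than 2 recurrent regions of 1398P2. Among those with 2 were Fbxo31, a ubiquitin ligase subunit gene, Camta1, a calmodulin-binding transcription activator gene, and Sez6l, a neuronal membrane protein gene. These genes also held regions specific to 1399P1: 6 of the 83 regions of Camta1, and 1 each in Fbxo31 and Sez6l.

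Genes with more regions in 1398P2 showed smaller differences. Arhgap17, a GTPase-activating protein, had 9 and 4 regions in 1398P2 and 3 and 3 in 1399P1, a log2 difference of -1.36 ± 0.24 (adjusted p = 0.331 in limma). Wif1, a secreted WNT inhibitor, had 7 and 4 against 3 and 3 (-1.19 ± 0.25, adjusted p = 0.476). Pak1, a kinase downstream of Rac and Cdc42, had 6 and 4 against 3 and 3. In each of these genes, the gap between replicate 2 of 1398P2 and 1399P1 was 1 region in unscaled numbers. The plot of regions per gene shows both directions.

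**Figure D5:**
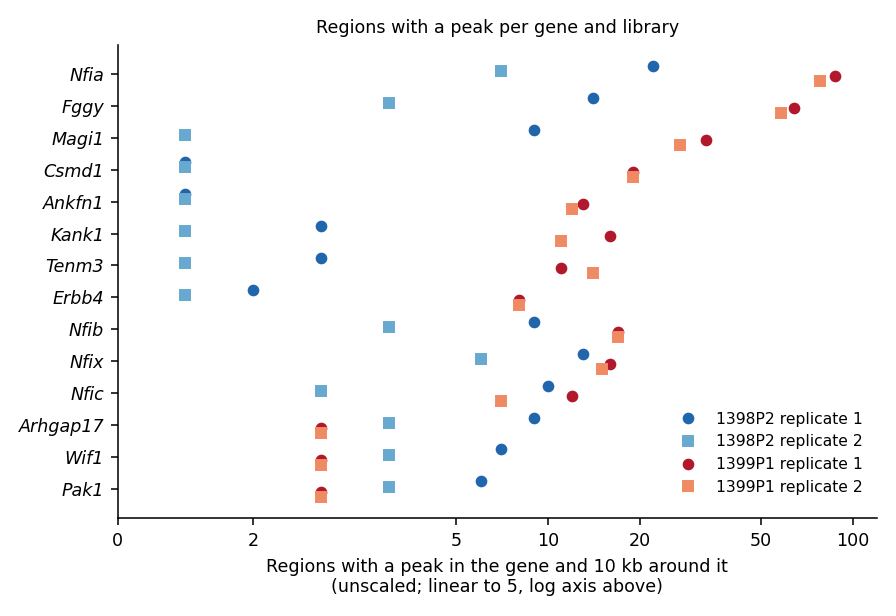
Regions with a peak in a gene and 10 kb around it (x axis, unscaled; linear to 5 and logarithmic above) in each of the 4 libraries for 14 genes. Nfia, Fggy and Magi1 reach 27 to 87 regions in 1399P1 and 1 to 22 in 1398P2, while Arhgap17, Wif1 and Pak1 have 4 to 9 regions in 1398P2 and 3 in 1399P1.

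With equal numbers of top-ranked peaks, limma called 31 genes higher in 1399P1 (0.844% of 3672) and 20 higher in 1398P2 (0.545%). Of these 51 genes, 41 had identical whole numbers in both libraries of each line, such as 2 and 2 against 4 and 4, where the estimated spread is nil. Such ties were found in 34.4% of all genes tested. The other 10 were Nfia, Fggy, Gm12695, Magi1, Nmnat3 and Ror1, higher in 1399P1, and Prdm16, Dapp1, Sntb1 and Tox2, higher in 1398P2. Prdm16, a zinc-finger regulator of cell fate, had 10 and 6 top-ranked regions in 1398P2 and 1 and 1 in 1399P1, a log2 difference of -2.48 with an adjusted p of 0.0300. Over all peaks its numbers were 19 and 6 against 10 and 12, which overlap. Ror1, a WNT5A receptor, had 2 and 2 against 5 and 6 top-ranked regions, and over all peaks 7 and 2 against 12 and 12.

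Line-specific regions also came in runs. Taking only regions open in 1399P1, in their order along a chromosome, 118 runs of at least 5 had no peak of 1398P2 in any of their regions and held 854 regions. Peaks of 1398P2 could still lie between these regions, and 38 of the 118 runs had none from end to end. The opposite runs, of regions with a peak in 1398P2 replicate 1 and none in 1399P1, numbered 32 and held 179 regions, and 16 had no 1399P1 peak from end to end. The opposite runs rest on 1 library, so the numbers of runs follow unlike rules. Among the 66526 regions open in 1399P1, 12681 had no peak of 1398P2, and how many runs this share alone would give was not tested. This description was added after the data were seen. The longest run, 55 regions from 96048589 to 96539840 on chromosome 4, lies in the stretch of raised background and spans 0 and 1 peaks of 1398P2. Further runs lie in or beside that stretch, among them the next longest, 47 regions from 96599959 to 97038433. Elsewhere, 13 regions ran over Ankfn1 (chromosome 11, 89388940 to 89934099), with 1 and 1 peaks of 1398P2 between them, where 12N1G and N2N1G had 14 to 16 peaks and the libraries of 1373M1 and 1398M1 had 0. A run of 12 covered Pde3a, a cyclic nucleotide phosphodiesterase gene (chromosome 6, 140850129 to 141293735), with 0 peaks of 1398P2 from end to end.

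On chromosome 8 a run of 11 regions covered Cdh11, a cadherin of mesenchymal and neural cells, and spanned 0 and 4 peaks of 1398P2. Between 102024819 and 103203805 there, both libraries of 1398P2 had 0 peaks, 1399P1 had 11 and 10, and the other 10 libraries had 5 to 15. The same was seen around Edil3, an integrin ligand gene (chromosome 13, 86054833 to 89122388), where 1399P1 had 5 and 9 peaks and the other 10 libraries 5 to 12. Over 1438 kb of chromosome 12 with Nrcam, a neuronal adhesion gene, and Stxbp6, 1398P2 again had 0 and 1399P1 had 5 and 6. Stretches without a 1398P2 peak also overlapped other genes named here: Isl1 (519 kb), Epha5 (750 kb), Sema3d (2180 kb), Epha7 (1120 kb) and Gabra2 (1982 kb). Erbb4, Grm7 and Csmd1 overlapped such stretches too. Whether DNA is missing from 1398P2 at these places was not tested, since a stretch without peaks has no background value in these lists.

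Some 18 gene lists, chosen with earlier results of these data known, put the differences by role. In the list of 30 neuroendocrine and neuronal transcription factors, 2 gene ends were specific to 1399P1 (background 1.62%): Isl1 and Neurod4, a proneural factor. Isl1 had 0 and 0 regions with a peak in 1398P2 and 3 and 2 in 1399P1, and lay in the 519 kb stretch given above. Neurod4 had 0 and 0 against 1 and 1. With equal top-ranked peaks the Neurod4 gene end was closed in both lines, and that of Prox1, a homeobox factor gene, was specific to 1398P2, which left 1 gene end for each line. Foxa1, a forkhead pioneer factor, had 5 and 3 regions in 1398P2 and 3 and 3 in 1399P1, so the lines met at 3. The gene ends of the 3 MYC family genes were open in both lines. Syt4, a synaptotagmin of dense-core vesicles, went the other way, with 4 and 1 regions in 1398P2 and 0 in both libraries of 1399P1.

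Axon guidance genes encode ligands, receptors and adhesion molecules of growing neurites. Of 44 members 34 were tested, 26 had more scaled regions in 1399P1, 9 at an unadjusted p under 0.05 and 0 at an adjusted one in limma. Their median log2 difference was 0.30, against -0.02 over all 8041 genes, of which 44.3% were above 0. The ligand gene Slit2 had 3 and 1 regions against 7 and 5, and Robo2, a receptor for SLIT ligands, 14 and 7 against 23 and 21. The receptor genes Ephb1 and Unc5d had 3 and 0 against 9 and 9, and 5 and 3 against 9 and 10. The gene ends of Epha5 and of Sema3d, a secreted semaphorin gene, were specific to 1399P1 with all peaks and with equal top-ranked peaks. Both genes overlap the long stretches without a 1398P2 peak given above, where missing DNA was not tested. The numbers of regions per gene did not lean to 1399P1 on equal top-ranked peaks, where the median of the 19 members tested was -0.08 against -0.02 over all genes. At the gene ends it was different: with equal top-ranked peaks 6 of 44 were specific to 1399P1 (background 1.09%) and 1 to 1398P2 (background 0.661%). Beside Epha5 and Sema3d these were Slit1, Unc5a, Unc5c and Epha7 for 1399P1, and Ntn1, the gene of the guidance ligand netrin-1, for 1398P2.

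Glutamate and GABA receptor genes gave 17 of 22 tested members above 0 and a median of 0.47. Grin2b, an NMDA receptor subunit, had 5 and 2 regions against 11 and 10, and Grm7, a metabotropic receptor, 1 and 1 against 6 and 6. The gene end of Gabra2 was specific to 1399P1. Collagen, laminin and integrin genes gave 21 of 28 above 0 and a median of 0.49, with Lama4 at 3 and 2 against 8 and 8 and Itga1 at 4 and 2 against 8 and 7. The median of this list turned to -0.26 on the 8 members tested with equal top-ranked peaks, and that of the receptors moved to 0.10 on 7 members. Without replicate 2 of 1398P2 the median was 0.22 for the axon guidance genes, 0.03 for the receptors and -0.04 for the matrix and integrin genes.

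The WNT list had 20 of 29 tested members above 0 with a median of 0.14. It held both directions, as Ror1 and the coreceptor gene Lrp5 (9 and 3 against 14 and 12) had more regions in 1399P1 and the inhibitor Wif1 fewer. Rspo2, an R-spondin that amplifies WNT signals, had a gene end specific to 1399P1. In the NOTCH, YAP and REST list 5 of 13 tested members were above 0, with a median of -0.10. Among mesenchymal genes Tgfbr2, the TGF-beta receptor type II gene, had 6 and 2 regions against 3 and 2. The remaining line-specific gene ends on the lists were Itga2, Hoxb6, Ttr and Tat for 1399P1 and Cd3e for 1398P2 (background 0.074%). Ttr and Tat are hepatocyte markers, although Alb and Afp had no peak, and the Tat gene end had peaks in both libraries of 12N1G, 1373M1, 1399M4 and N2N1G.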

How the data were processed

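Each library had its own peak list in narrowPeak layout. Tools named per the submitters' processing notes were MACS2, Bowtie2, SAMtools, Picard and cutadapt 2.10, and builds mm10 and GRCm38. Their settings, and whether reads were shifted to the insertion point, were not given in the sources used here. The authors deposited for each summit a score (not used), a fold enrichment, which is a ratio to the local background, and -log10 p-values and -log10 q-values, with a lowest -log10 q of 1.3. These values were used only within a list. Depth was solved from the lists: with the peak caller's Poisson model, fold and p fix both the pileup and the local background of a summit, and pileups came out whole within 0.02 for at least 97.7% of summits in every library.

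Summits of a peak were joined, and peaks on chromosomes 1 to 19 and X were merged at 1 bp. Genes were taken from a RefSeq table of GRCm38.p6, without strand or exons, so no exon, intron or UTR is assigned; promoter windows came from a RefSeq table that is not complete. Regions per protein-coding gene were scaled by the library total, and log2(number + 0.5) was fitted with limma 3.58.1 in R 4.3.3 (trend, Benjamini-Hochberg at 0.05), contrast 1399P1 minus 1398P2. Log2 differences on this scale understate changes of genes with few regions. Counting, solving and fitting were tested on simulated data. The members, lists and tests were chosen with earlier results of these data known. The naming rule took called genes, the 6 genes and 5 regions per direction with the most or highest-ranked recurrent regions, and list members with a line-specific gene end; as no gene was called, further genes were chosen after their values were seen.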

Additional observations from a re-analysis of the deposited data

How the results depend on the processing

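Counts of line-specific regions depended on the libraries. Leaving out 1 library at a time gave 909 to 14692 regions specific to 1398P2, 12908 to 39116 specific to 1399P1 and 27820 to 53621 open in both lines; the 1398P2 count was 14692 without its replicate 2, and the 1399P1 count 39116 without 1398P2 replicate 1, which leaves the short list alone. Equal top-ranked peaks gave 2270 and 3509. Equal top-ranked peaks without 1398P2 replicate 2, added after seeing the data, gave 15809 specific to 1398P2 and 52853 open in both. Requiring peaks to cover 50% of a region left 11529 open in both. With equal top-ranked peaks the gene-end share moved to 9.25% for 1398P2 and 8.49% for 1399P1, with 47.3% of the latter inside genes and 44.2% outside, and the 1399P1-specific regions open in other lines moved to 42.9% (12N1G), 36.8% (1373M1), 30.7% (1398M1), 35.4% (1399M4) and 44.5% (N2N1G). Without 1398P2 replicate 2, 17.5% of the 1398P2-specific regions were open in 1398M1. The median background per bin, the measure first chosen, raised 12 bins in 1398P2 and 0 in 1399P1; the 10% quantile per bin, added after seeing the data, raised 1 and 2.

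Genes called by limma ranged with 1 library left out from 6 to 2055 higher in 1399P1 and from 0 to 2043 higher in 1398P2. The highest counts came without 1398P2 replicate 1, and the counts were 467 and 188 without its replicate 2 and 6 and 0 without either library of 1399P1. All 14 libraries in the fit gave 159 and 38, and equal top-ranked peaks 31 and 20. A pseudocount of 1, a mean of at least 1 region, gene bodies alone, median scaling and leaving out bins of raised background each gave 0. Median scaling moved the median log2 difference of all genes from -0.02 to 0.10 and the split at an unadjusted p under 0.05 from 334 and 158 to 359 and 339. The replicate numbers did not pair the libraries: deviations of same-numbered libraries had r = 0.124 across 8041 genes, over 2 pairs, and the replicate block gave 0 calls, with 190 and 152 genes at an unadjusted p under 0.05.

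List medians with equal top-ranked peaks were 0.26 (tuft), -0.084 (axon guidance), 0.10 (receptors), -0.31 (mesenchymal), -0.26 (matrix and integrins), 0.77 (Hox) and -0.65 (fibroblast and endothelial markers), and without 1398P2 replicate 2 they were 0.22 (tuft), 0.025 (receptors), -0.039 (matrix and integrins) and -0.035 (Hox). The difference of Nfic was reversed without 1398P2 replicate 2 (-0.09), without 1399P1 replicate 1 (-0.12), with equal top-ranked peaks (-0.017) and with equal top-ranked peaks but no 1398P2 replicate 2 (-0.11); with 1 library left out it ranged from -0.12 to 0.53. Of the 47 genes followed, the other 46 kept their sign wherever they were tested. Few were tested with equal top-ranked peaks: 10 kept their sign without a call, 4 with a call, and Nfic was reversed. Most of the 47 were chosen for a small p in the same libraries, so a kept sign is no independent check. The cause of these changes was not tested. No outlier check was possible with 2 libraries per line.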

Other observations

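The 1399P1-specific share of regions differed between chromosomes. It was 16.5% on chromosome 19 and 14.4% on chromosome 4, or 11.6% (820 of 7058) there outside the stretch of raised background, against 7.25% on chromosome 7 and 6.65% on chromosome X. The 1398P2-specific share was 0.847% on chromosome 7, where it was 19.1% without replicate 2 of 1398P2 and 8.38% with equal top-ranked peaks, the highest of any chromosome in both of these settings. It was lowest on chromosome 19 in all 3 settings (0.0755%, 6.84% and 0.874%), with all peaks on 2 of 2649 regions. These are counts over regions, with no test.

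Of the 5 tuft-like genes tested, among them Dclk1 with 11 and 2 regions in 1398P2 and 17 and 13 in 1399P1, 4 had more scaled regions in 1399P1, beside 44.3% of all genes tested. All 8 Hox genes tested did so too, although their median was below 0 without replicate 2 of 1398P2 (-0.035), and 4 of 39 Hox gene ends were open in both lines and 16 were closed in both, beside 53.01% and 30.0% of all genes. Replicate 2 of 1398P2 alone had peaks in 2115 regions closed in 1399P1, with a median percentile of 11.03 within its list.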
